A study of Mus musculus with 17 samples.

Results

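The genes described here are 45 genes of the cell division cycle, taken by symbol from the count table of a mouse ovarian cancer series. They are 13 genes of replication licensing and DNA synthesis, 9 genes of the passage from G1 into S phase, 18 genes of G2 and mitosis, and 5 inhibitors of cyclin-dependent kinases (CDKs). All 45 were found among the 43629 genes of the table, and all 45 were among the 22671 genes with enough counts to be tested. They were chosen by their roles in the cycle.

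The series profiled total RNA from ID8, a mouse line labelled as ovarian surface epithelium, and from what grew after ID8 cells were injected into mice. There were 3 orthotopic tumours, from cells placed inside the bursa of the right ovary, and 2 subcutaneous tumours. The orthotopic tumours went on to ascites, the tumour-bearing fluid of the peritoneum, sampled as 3 first-tap and 3 second-tap libraries. They also gave 3 solid growths at the intestine, called intestine tumours here. The healthy ovary and healthy intestine, labelled C57BL6 and untreated, and the untreated line, grown in DMEM with serum, gave 1 library each. The treatment protocol places the subcutaneous tumours on the flanks, while the sample labels place them on the scruff. Strain, sex and age of the injected mice, and which samples shared an animal, are not given in the sources used here, so p-values measure the spread between these samples alone, which may be technical. Each library is named by its group and the number in its label, and values within a group run from the lowest number to the highest. The subcutaneous libraries are numbers 2 and 3.

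Cell division runs through G1, S, G2 and M phases. In G1, D cyclins with Cdk4 and Cdk6, and then E cyclins with Cdk2, phosphorylate the retinoblastoma protein and free E2F factors, which switch on the genes that license origins and copy DNA. In G2, A and B cyclins with Cdk1 drive the cell into mitosis, and the mitotic genes are switched on by Foxm1 and B-Myb and held down in resting cells by the DREAM complex, which binds the CHR element in their promoters. In adult epithelium these genes are known as readouts of how many cells are cycling, while the CDK inhibitors are induced in arrested, stressed or differentiating cells.

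Depth ran from 12031221 counts in intestine tumour 1 to 38902048 counts in orthotopic tumour 1, with a median of 27342134 counts per library. Levels are given as CPM, read counts scaled to library size and composition, which may be compared between libraries for 1 gene but not between genes. The 17 library names carry 3 prefixes: S for the line, orthotopic tumour 1, first tap 1, second tap 2 and intestine tumour 1, SCT for both subcutaneous tumours, and SM for the rest. What the prefixes stand for is not given, and for subcutaneous tumours prefix and site cannot be told apart. Markers of other cells differed between groups. In the line, 7 of 10 macrophage markers (Adgre1, Mrc1, C1qa, C1qb, C1qc, Itgam and Lyz2), 5 of 8 endothelial markers (Cdh5, Kdr, Tie1, Emcn and Cldn5) and 6 of 7 erythroid markers had no count. The summed macrophage markers were 2221 to 16259.8 CPM in the first tap, 5489 to 9167 CPM in the second tap, 364 to 622 CPM in orthotopic tumours, 422 to 1024 CPM in subcutaneous tumours and 341 to 969 CPM in intestine tumours, against 5.56 CPM in the line. The summed markers of gut epithelium were 6289.8 to 19308.5 CPM in intestine tumours, against 16770.4 CPM in healthy intestine and 2.60 CPM in the line, where 5 of 9 (Cdx1, Cdx2, Fabp2, Krt20 and Cdh17) had no count. Subcutaneous tumour 2 held 2825 CPM of B cell markers and 8111 CPM of adipocyte markers, and subcutaneous tumour 3 held 764 CPM of keratinocyte markers. The healthy ovary held 5509 CPM of granulosa and steroidogenic markers and 121 CPM of oocyte markers. The part of these cells in the results below was not tested.

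Cell cycle genes stood highest in the cultured line. Of the 17 libraries, the line had the highest level of all 13 licensing and replication genes, all 18 G2 and mitosis genes, 7 of 9 G1/S genes and 1 of 5 inhibitors, which is 39 of the 45 genes. Since the line is 1 library, it has no replicate check, and every comparison with it assumes that it varies like the replicated groups. In these bulk samples, fewer cycling tumour cells, less of each RNA per cell and a larger share of other cells cannot be told apart. Outside the line, the highest level of 25 of the 45 genes was in second tap 3, and the lowest level of 32 genes in intestine tumour 1. How often these libraries held the highest or lowest level over all genes tested was not counted, so these counts have no background.

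**Figure D1:**
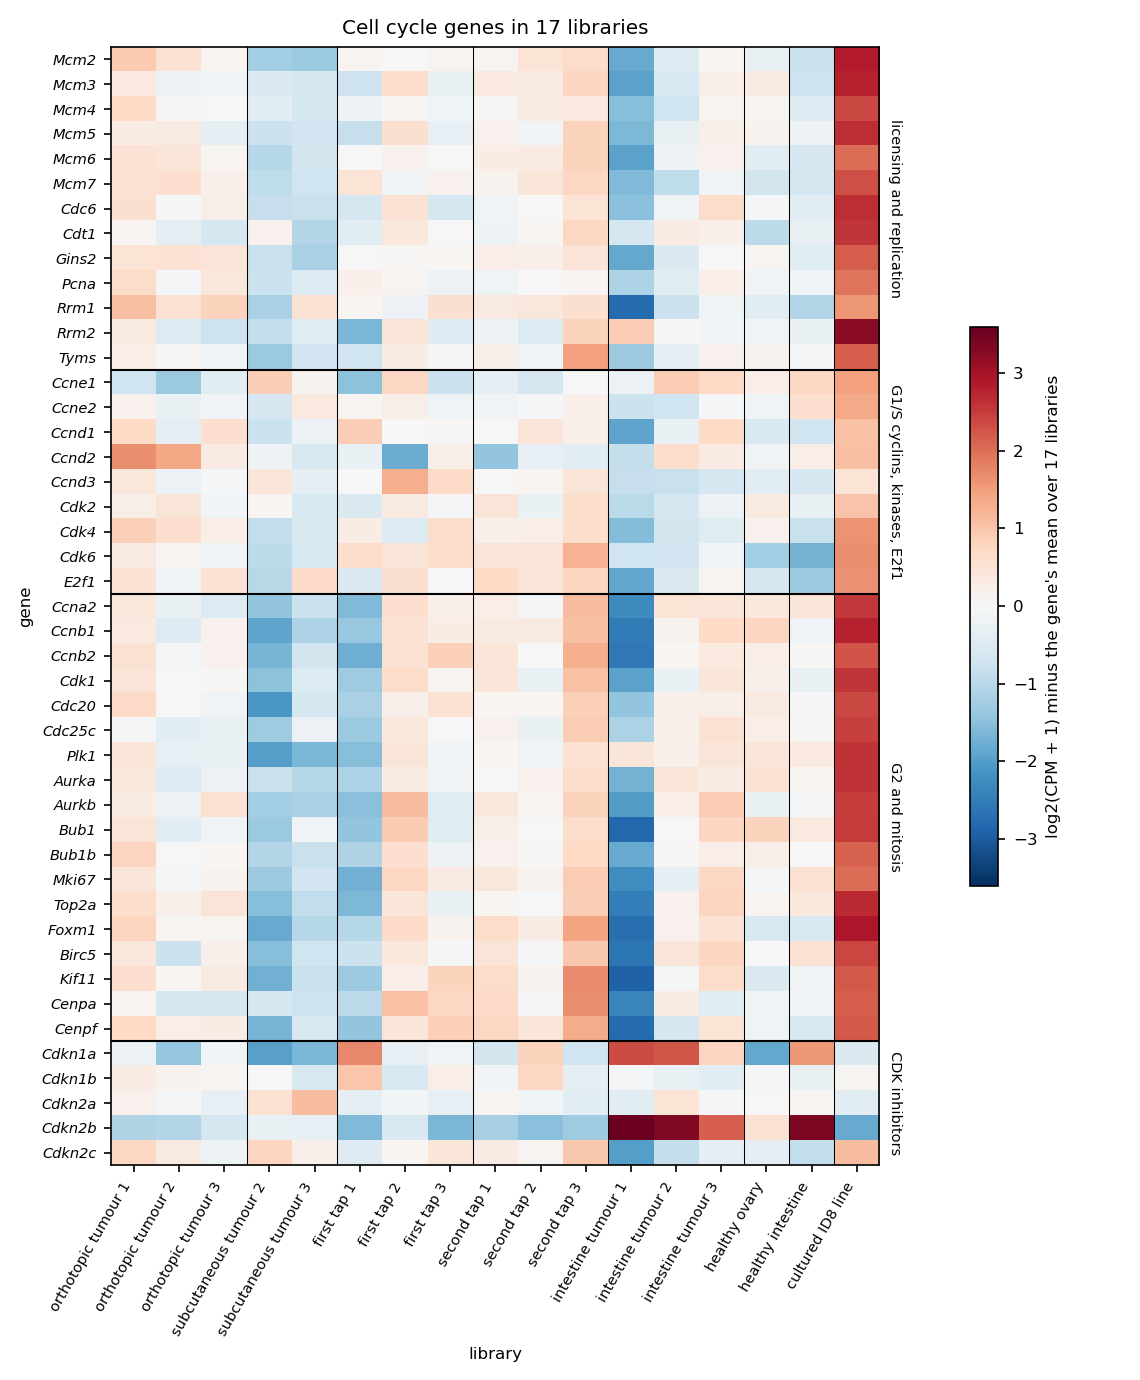
Level of each of the 45 genes (down the page, grouped by role) in each of the 17 libraries (across), as log2(CPM + 1) minus that gene's mean over the libraries; red is above the gene's mean and blue below it. The cultured line, at the right edge, is the reddest column for 39 of the 45 genes, and intestine tumour 1 holds the lowest value of 32.

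Set against the line, the licensing and replication genes and the G2 and mitosis genes were at lower shares than the G1/S genes in each tumour and ascites library, with no test of the difference between roles. The median licensing and replication gene stood at 26.5, 19.7 and 18.9% of its level in the line in orthotopic tumours, 9.96 and 9.42% in the subcutaneous ones and 6.30, 12.7 and 19.1% in intestine tumours. In ascites that median was 14.7, 22.3 and 17.2% at the first tap and 19.6, 19.9 and 27.4% at the second. The lowest of these shares was in intestine tumour 1 and the highest in second tap 3.

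The median G2 and mitosis gene stood at 23.3, 14.4 and 16.6% of the line in orthotopic tumours, 5.80 and 11.2% in the subcutaneous ones and 2.97, 19.98 and 24.96% in intestine tumours. At the first tap it stood at 6.16, 25.4 and 17.3% and at the second at 21.5, 17.8 and 34.8%. The lowest shares were in intestine tumour 1, subcutaneous tumour 2 and first tap 1. For the median G1/S gene the shares were higher, at 55.4, 38.3 and 44.9% in orthotopic tumours, 27.9 and 35.7% under the skin, 39.8, 47.1 and 48.7% in the first tap, 42.9, 40.4 and 54.7% in the second tap and 20.4, 30.04 and 41.4% in intestine tumours. The healthy tissues lay inside the range of the tumours, with a G2 and mitosis median of 20.6% in ovary and 19.6% in intestine. Among the libraries whose names share the prefix S with the line, all 13 licensing and replication genes and all 18 G2 and mitosis genes were below the line in each of the 4.

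**Figure D2:**
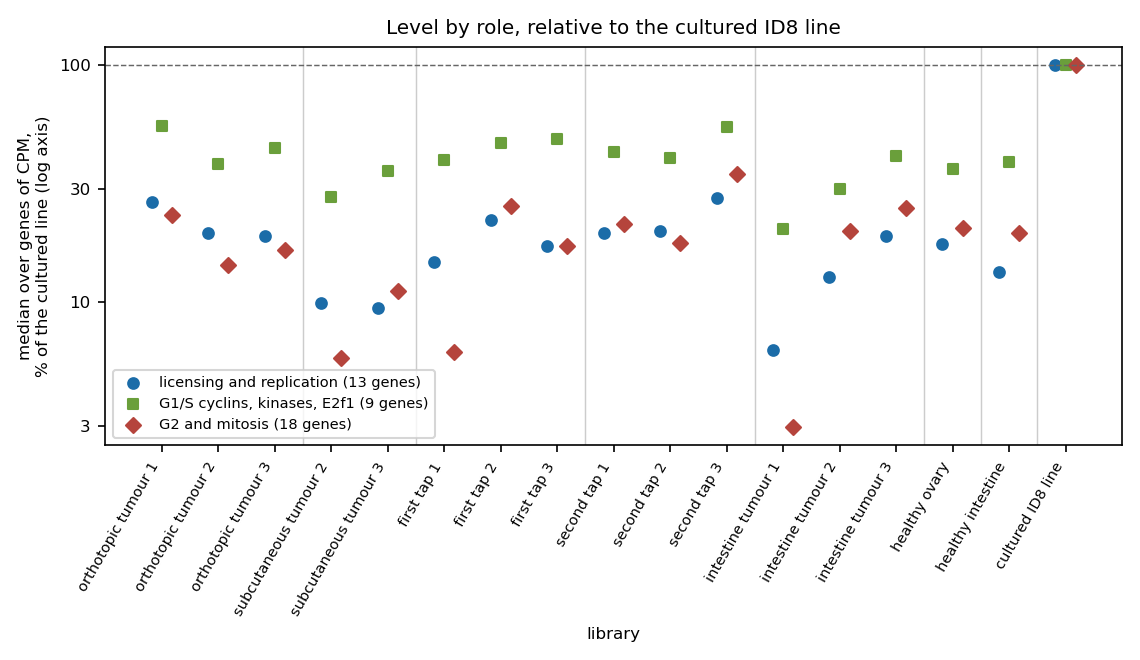
Median over the genes of a role of CPM as a percentage of the cultured line (vertical log axis), for each library (across); circles are licensing and replication, squares G1/S and diamonds G2 and mitosis. Outside the line the G1/S squares lie above the other symbols in each library, and the G2 and mitosis diamond of intestine tumour 1, at 2.97%, is the lowest point.

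The 5 comparisons with the line share that library. In orthotopic tumours 9 of the 45 genes were lower than in the line and 0 were higher, where 0.834% of all genes tested were called lower and 2.37% higher (edgeR quasi-likelihood test, adjusted p under 0.05 by Benjamini and Hochberg over 22671 genes). At an unadjusted p under 0.05, 29 were lower and 1, Cdkn2b, was higher, where 4733 of the 22671 genes were under it in either direction. DESeq2 called 22, where it called 3806 of all genes. In subcutaneous tumours 26 were lower, against 3.23% of all genes, and 1 was higher, against 6.25%. At the first tap 11 were lower, against 1.11% of all genes, and 0 were higher, against 3.11%. There, 32 were lower and 1 higher at an unadjusted p under 0.05, where 4677 of all genes were under it. DESeq2 called 25 there, where it called 3746 of all genes. At the second tap 7 were lower, against 1.27%, and 0 were higher, against 3.16%. There, 28 were lower and 1 higher at an unadjusted p under 0.05, where 4762 of all genes were under it. DESeq2 called 14 there, where it called 3919 of all genes. In intestine tumours 26 were lower, against 5.63%, and 1 was higher, against 9.55%. 

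These counts moved when 1 library was left out. How many of all genes tested passed in each of these fits is not given here, so the counts below have no background. In orthotopic tumours the 9 calls became 3, 1 and 1 without tumours 1, 2 and 3, and Cdt1 passed each time. In subcutaneous tumours the 27 calls became 6 without tumour 2 and 18 without tumour 3, where the remaining tumour is assumed to vary like the other groups; Cdk6, Cdt1, Mcm2, Mcm4, Mcm7 and Plk1 passed both times. At the first tap the 11 calls became 7, 12 and 6 without libraries 1, 2 and 3, and at the second tap the 7 calls became 0, 0 and 5. In intestine tumours the 27 calls became 17, 13 and 31 without tumours 1, 2 and 3, and 13 genes passed each time: Mcm2 to Mcm7, Cdt1, Gins2, Pcna, Aurka, Cdk4, Cdk6 and Cdkn2b.

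**Figure D3:**
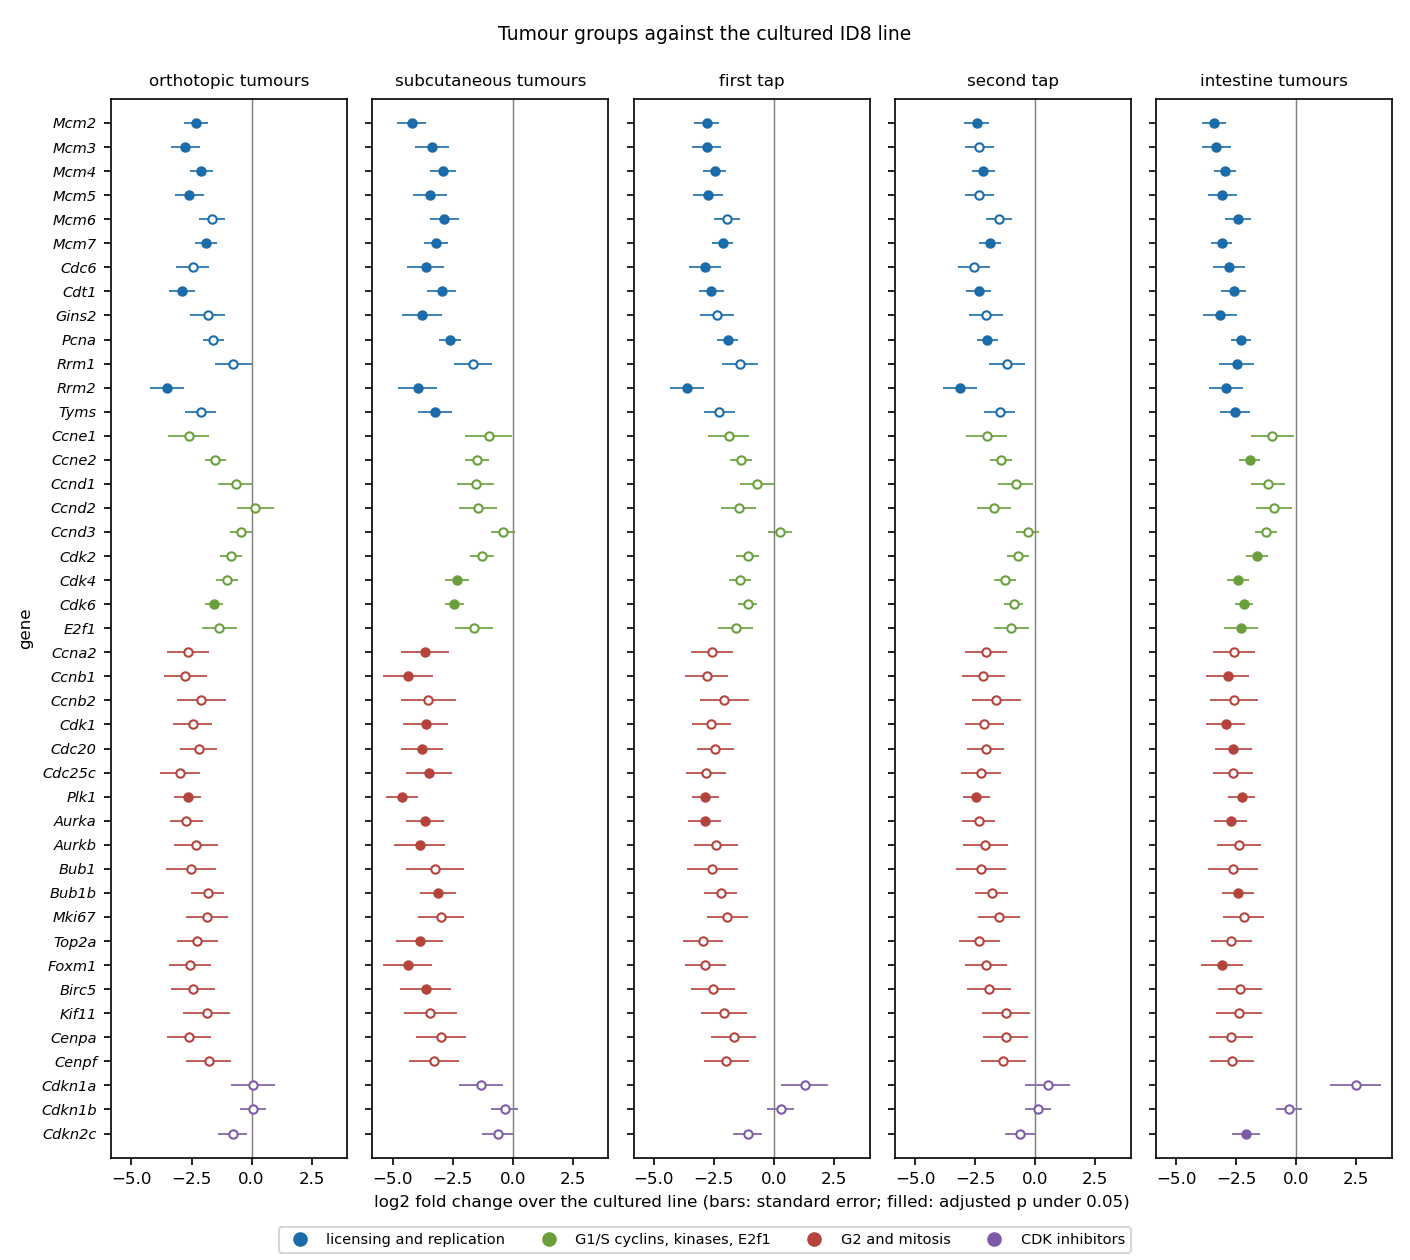
Log2 fold change of each tumour group over the cultured line (horizontal axis, 1 panel per group) for 43 of the 45 genes (down the page); bars are standard errors, filled points have an adjusted p under 0.05, and Cdkn2a and Cdkn2b, with no count in the line, are left out. Filled points are most frequent among the licensing and replication genes, where 7, 12, 9, 6 and 13 of 13 are filled from the left panel to the right.

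By edgeR at an adjusted p under 0.05, most calls against the line fell among the 13 genes of replication licensing and DNA synthesis. Mcm2, Mcm4 and Mcm7, subunits of the helicase that opens DNA at origins, Cdt1, which loads that helicase, and Rrm2, a subunit of the enzyme that makes deoxyribonucleotides, were lower in all 5 comparisons with the line. Mcm3 and Mcm5, of the same helicase, and Pcna, the clamp that holds DNA polymerase, were lower in 4 of 5. Of the 13 genes, 7 were lower in orthotopic tumours, 12 in subcutaneous tumours, 9 at the first tap, 6 at the second tap and 13 in intestine tumours, with 0 higher in any. Their median log2 fold changes over the line were -2.12, -3.22, -2.46, -2.15 and -2.92 in that order, where the medians of all genes tested were 0.24, 0.60, 0.55, 0.53 and 0.41.

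The promoters of 4 of these genes are shown as examples that carry, or lack, the sequence motifs that the phases of the cycle are known by. They run from 250 bases before to 50 bases after the start of transcription (RefSeq, build GRCm38.p6), 5′ to 3′ on the strand of the gene, and capitals mark matches to 3 motifs. The E2F site was searched as TTTGGCGC, TTTCCCGC, TTTCGCGC or TTTGCCGC, the CCAAT box as CCAAT and the CHR element as TTTGAA, each on both strands. Mcm2 lies at chr6:88898731-88899030 (minus strand), Mcm3 at chr1:20820263-20820562 (minus strand), Mcm5 at chr8:75109259-75109558 (plus strand) and Cdt1 at chr8:122567765-122568064 (plus strand).
Mcm2: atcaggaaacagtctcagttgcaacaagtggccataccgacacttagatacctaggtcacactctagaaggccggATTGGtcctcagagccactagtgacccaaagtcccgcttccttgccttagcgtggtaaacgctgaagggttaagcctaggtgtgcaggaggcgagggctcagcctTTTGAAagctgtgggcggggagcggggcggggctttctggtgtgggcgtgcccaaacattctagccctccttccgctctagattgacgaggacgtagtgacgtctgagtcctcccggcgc
Mcm3: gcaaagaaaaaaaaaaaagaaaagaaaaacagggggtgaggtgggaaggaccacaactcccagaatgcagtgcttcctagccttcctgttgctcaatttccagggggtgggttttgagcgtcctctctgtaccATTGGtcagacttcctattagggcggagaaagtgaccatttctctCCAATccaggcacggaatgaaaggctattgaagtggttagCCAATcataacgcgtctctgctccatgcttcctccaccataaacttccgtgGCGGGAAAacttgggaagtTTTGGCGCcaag
Mcm5: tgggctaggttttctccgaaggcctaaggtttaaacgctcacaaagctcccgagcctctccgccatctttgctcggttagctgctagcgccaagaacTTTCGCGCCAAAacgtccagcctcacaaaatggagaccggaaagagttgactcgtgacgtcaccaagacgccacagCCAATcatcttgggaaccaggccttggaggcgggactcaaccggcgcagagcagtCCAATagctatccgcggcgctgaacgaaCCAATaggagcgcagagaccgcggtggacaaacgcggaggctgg
Cdt1: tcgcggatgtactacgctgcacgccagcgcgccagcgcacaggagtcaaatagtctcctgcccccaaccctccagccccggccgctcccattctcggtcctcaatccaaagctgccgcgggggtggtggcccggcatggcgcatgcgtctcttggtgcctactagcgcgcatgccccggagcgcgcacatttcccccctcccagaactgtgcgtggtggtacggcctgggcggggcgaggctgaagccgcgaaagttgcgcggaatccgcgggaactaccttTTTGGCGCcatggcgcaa
In Mcm3 the E2F matches are GCGGGAAA and TTTGGCGC, downstream of 3 CCAAT boxes; in Mcm5 the matches TTTCGCGC and GCGCCAAA overlap; in Cdt1 the 1 match is TTTGGCGC. The Mcm2 window has no E2F match in these letters. It holds the CHR letters and, upstream of them, the CCAAT box read from the other strand. Pcna and Rrm2, lower in 4 and 5 of the comparisons with the line, are not shown. Their windows hold a CCAAT box and no E2F or CHR match. RefSeq's table held promoters of 36 of the 45 genes. Here and below, the 5 genes with 2 starts counted as a match if either promoter matched. The share of all promoters counts each promoter singly. An E2F match was in 6 of 11 licensing and replication genes (54.5%), against 2.26% of all 32851 promoters in the table, and a CHR match in 1 of 11 (9.09%), against 17.9%. A match describes letters only.

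Mcm2 had 102, 75.6 and 55.0 CPM in orthotopic tumours, 21.4 and 20.1 CPM in subcutaneous tumours and 14.1, 37.9 and 55.1 CPM in intestine tumours. Ascites held 56.6, 52.8 and 56.5 CPM at the first tap and 56.6, 73.6 and 82.8 CPM at the second. Healthy ovary had 43.7 CPM, the healthy intestine 29.5 CPM and the cultured line 384 CPM. Every tumour, ascites and healthy library was below the line, and both subcutaneous tumours were below all orthotopic tumours. Against the line Mcm2 was 18.5-fold lower in subcutaneous tumours (log2 fold change -4.21 ± 0.60, adjusted p = 0.00687), 10.7-fold lower in intestine tumours (log2 fold change -3.43 ± 0.51, adjusted p = 0.00477) and 4.96-fold lower in orthotopic tumours (log2 fold change -2.31 ± 0.52, adjusted p = 0.0355). The differences of first-tap ascites (log2 -2.80 ± 0.51, adjusted p = 0.0165) and second-tap ascites (log2 -2.44 ± 0.52, adjusted p = 0.025) from the line also passed.

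For Mcm7, the orthotopic tumours gave 84.4, 87.7 and 64.2 CPM, the subcutaneous tumours 29.8 and 33.9 CPM and the intestine tumours 18.4, 29.8 and 52.3 CPM. First-tap ascites gave 80.6, 53.4 and 63.6 CPM and second-tap ascites 62.2, 78.1 and 95.9 CPM. Healthy ovary gave 35.8 CPM, healthy intestine 36.2 CPM and the line 291 CPM. The line was again highest, intestine tumour 1 lowest, and no intestine tumour reached the lowest orthotopic tumour. Mcm7 was 8.66-fold lower in intestine tumours than in the line (log2 fold change -3.12 ± 0.45, adjusted p = 0.00415), and 9.13-fold lower in subcutaneous tumours (log2 fold change -3.19 ± 0.51, adjusted p = 0.0088). Mcm7 overlaps other genes on both strands and hosts microRNAs in mouse, and whether counting used strand is not given, so its counts are uncertain. The same limit holds for the 14 members whose exons overlap a gene on the opposite strand (Ccna2, Ccnd1, Ccnd2, Ccnd3, Ccne2, Cdc20, Cdc25c, Cdk2, Cdk4, Cdk6, Cdkn1a, Gins2, Mcm7 and Plk1) and for Foxm1 and Top2a, which overlap a gene on the same strand. A further limit holds for Ccnb1, Ccnb2, Ccnd3, Pcna and Tyms, which have annotated pseudogene copies.

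Mcm4 stood at 94.9, 58.0 and 56.5 CPM in the orthotopic tumours, 42.8 and 36.6 CPM under the skin and 18.8, 33.8 and 61.0 CPM on the intestine. It stood at 49.7, 61.4 and 51.3 CPM in the first tap and 58.4, 70.6 and 72.1 CPM in the second. The level was 59.4 CPM in healthy ovary, 41.2 CPM in healthy intestine and 298 CPM in the line. The tumours and ascites lay between 18.8 and 94.9 CPM, far below the line. Mcm4 changed over the line by -2.10 ± 0.48 in orthotopic tumours, -2.91 ± 0.53 in subcutaneous tumours, -2.46 ± 0.47 at the first tap, -2.15 ± 0.48 at the second and -2.98 ± 0.47 in intestine tumours on the log2 scale (adjusted p = 0.0373, 0.0131, 0.0187, 0.0288 and 0.00526).

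Pcna counts came to 80.1, 47.6 and 66.9 CPM in orthotopic, 29.0 and 35.1 CPM in subcutaneous and 22.7, 36.9 and 58.9 CPM in intestine tumours. They came to 57.3, 53.7 and 43.3 CPM in first-tap and 44.9, 49.7 and 52.9 CPM in second-tap ascites. They were 45.6 CPM in healthy ovary, 45.1 CPM in healthy intestine and 196 CPM in the cultured line. Apart from the line, the highest level was in orthotopic tumour 1 and the lowest in intestine tumour 1. Pcna was lower than in the line in subcutaneous tumours (log2 fold change -2.61 ± 0.47, adjusted p = 0.0125), intestine tumours (log2 fold change -2.31 ± 0.42, adjusted p = 0.00832), the second tap (log2 fold change -1.99 ± 0.43, adjusted p = 0.0256) and the first tap (log2 fold change -1.93 ± 0.43, adjusted p = 0.0287). Its orthotopic difference missed the threshold (log2 fold change -1.59 ± 0.43, adjusted p = 0.065). Pcna has pseudogene copies in the mouse annotation that could share its reads.

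The line was likewise highest for the other licensing and replication genes. Cdt1 ran from 10.8 to 39.6 CPM outside the line, against 144 CPM in the line. Rrm2 was lower than in the line in orthotopic tumours by 11.5-fold (log2 fold change -3.53 ± 0.70, adjusted p = 0.0244). Intestine tumour 1, which held the lowest level of 10 of the 13 genes, held 46.0 CPM of Rrm2, the highest level of Rrm2 outside the line. Rrm1, the partner subunit of Rrm2, was lower in intestine tumours (log2 fold change -2.49 ± 0.72, adjusted p = 0.0383), and its differences from the line in the other 4 comparisons missed the threshold. Cdc6, which helps Cdt1 load the helicase, was lower in 3 comparisons, and Gins2, of the active helicase, Mcm6 and Tyms, which makes thymidylate, in 2 each.

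Fewer of the 9 cyclin, kinase and E2f1 genes of G1 and S passed. Against the line, Cdk6 was lower in 3 comparisons, Cdk4 in 2, and Cdk2, Ccne2 and E2f1 in 1 each, while the D cyclins and Ccne1 passed in 0 of 5. At an unadjusted p under 0.05, Ccnd2 was lower at the second tap and Ccnd3 in intestine tumours, and Ccne1 was lower in orthotopic tumours and at both taps. The median log2 fold changes over the line were -1.02 in orthotopic tumours, -1.49 in subcutaneous tumours, -1.37 at the first tap, -0.999 at the second and -1.65 in intestine tumours.

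Ccnd1 had 207, 101 and 192 CPM in orthotopic tumours, 73.3 and 108 CPM in subcutaneous tumours and 33.1, 104 and 209 CPM in intestine tumours. The ascites libraries showed 232, 124 and 130.1 CPM at the first tap and 126, 175 and 146 CPM at the second. Healthy ovary showed 85.8 CPM, the healthy intestine 75.8 CPM and the cultured line 263 CPM. Ccnd1 encodes cyclin D1, which binds Cdk4 and Cdk6, and both subcutaneous tumours were below all ascites libraries, with intestine tumour 1 far below the other intestine tumours. No Ccnd1 comparison with the line had an unadjusted p under 0.05. For Ccnd2, the orthotopic tumours gave 1044, 863 and 403 CPM, the subcutaneous tumours 286 and 219 CPM and the intestine tumours 180.4, 502 and 401 CPM. First-tap ascites gave 278, 93.2 and 374 CPM and second-tap ascites 121, 263 and 249 CPM. Healthy ovary gave 299.7 CPM, healthy intestine 387 CPM and the line 690.5 CPM. Ccnd2 encodes cyclin D2, the D cyclin of ovarian granulosa cells, and it was 1 of the 2 genes of this role whose highest library was not the line. Orthotopic tumours 1 and 2 were above the line, while the ascites libraries were all below the lowest orthotopic tumour.

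Of the 45 genes, Ccnd2 was the 1 that DESeq2 called between ascites and orthotopic tumours, and edgeR called 0. It averaged 211 ± 78.3 CPM at the second tap and 769.8 ± 331 CPM in orthotopic tumours (SD, n = 3 each), with a log2 fold change of -1.87 ± 0.56 and an adjusted edgeR p of 0.133. At the first tap it averaged 249 ± 143 CPM (SD, n = 3), with a log2 fold change over orthotopic tumours of -1.63 ± 0.56 and an adjusted p of 0.146. Neither passed by edgeR, while DESeq2 called both (log2 fold change -1.95 ± 0.55, adjusted p = 0.00923 at the second tap and -1.64 ± 0.55, adjusted p = 0.0326 at the first). The granulosa and steroidogenic markers summed to 68.0 to 509.7 CPM at the first tap and 241 to 397 CPM at the second, against 577 to 673 CPM in orthotopic tumours; the endothelial markers summed to 28.0 to 52.1 CPM at the first tap and 27.4 to 57.5 CPM at the second, against 289 to 517 CPM in orthotopic tumours. The fibroblast markers summed to 177 to 962 CPM at the first tap and 498 to 827 CPM at the second, against 1995 to 4339 CPM in orthotopic tumours. The part of these cells, and of macrophages, in the Ccnd2 values was not tested.

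Ccnd3 stood at 99.9, 64.0 and 71.7 CPM in the orthotopic tumours, 102 and 58.6 CPM under the skin and 41.3, 42.3 and 47.8 CPM on the intestine. It stood at 74.7, 185 and 121 CPM in the first tap and 76.0, 78.0 and 103 CPM in the second. The level was 56.7 CPM in healthy ovary, 49.2 CPM in healthy intestine and 106 CPM in the line. Ccnd3 encodes cyclin D3, and its highest library was first tap 2. The intestine tumours were the lowest group, all below the lowest orthotopic tumour, but this difference did not pass (log2 fold change -0.84 ± 0.34, adjusted p = 0.114).

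Cdk4 counts came to 193, 162 and 126 CPM in orthotopic, 57.01 and 72.2 CPM in subcutaneous and 35.3, 66.5 and 78.0 CPM in intestine tumours. They came to 127, 75.7 and 164 CPM in first-tap and 119.8, 124 and 164 CPM in second-tap ascites. They were 118 CPM in healthy ovary, 60.7 CPM in healthy intestine and 325 CPM in the cultured line. Cdk4 is a kinase partner of the D cyclins. Orthotopic tumours and ascites were at most 193 CPM, and the subcutaneous and intestine tumours lay below all orthotopic tumours. Cdk4 was lower than in the line in intestine tumours (log2 fold change -2.44 ± 0.45, adjusted p = 0.00856) and subcutaneous tumours (log2 fold change -2.33 ± 0.51, adjusted p = 0.0197).

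Cdk6 had 82.9, 69.4 and 61.3 CPM in orthotopic tumours, 33.8 and 44.4 CPM in subcutaneous tumours and 39.4, 40.7 and 60.7 CPM in intestine tumours. In ascites it had 103, 90.1 and 103 CPM at the first tap and 90.2, 91.6 and 158 CPM at the second. The healthy ovary held 27.5 CPM, the healthy intestine 19.4 CPM and the cultured line 211 CPM. Cdk6 is the other kinase partner of the D cyclins. Here the ascites libraries stood above all orthotopic tumours, which stood above all subcutaneous tumours, and the healthy tissues were lowest. Against the line, Cdk6 was lower in orthotopic tumours (log2 fold change -1.56 ± 0.38, adjusted p = 0.0439), subcutaneous tumours (log2 fold change -2.43 ± 0.41, adjusted p = 0.0101) and intestine tumours (log2 fold change -2.17 ± 0.37, adjusted p = 0.00682), and missed the threshold in ascites (adjusted p = 0.1254 at the first tap and 0.205 at the second). The second tap was above orthotopic tumours by 0.67 ± 0.29 on the log2 scale, which missed the threshold (adjusted p = 0.271).

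For Cdk2, the orthotopic tumours gave 31.4, 37.5 and 25.4 CPM, the subcutaneous tumours 28.8 and 18.1 CPM and the intestine tumours 13.4, 17.02 and 23.5 CPM. First-tap ascites gave 18.8, 34.3 and 26.2 CPM and second-tap ascites 38.1, 22.9 and 42.6 CPM. Healthy ovary gave 34.6 CPM, healthy intestine 22.2 CPM and the line 56.7 CPM. Cdk2 is the partner of the E cyclins. All libraries were below the line, and all intestine tumours were below all orthotopic tumours. It was lower in intestine tumours than in the line (log2 fold change -1.65 ± 0.45, adjusted p = 0.0311). Ccne2 stood at 13.3, 9.71 and 10.8 CPM in the orthotopic tumours, 7.42 and 15.3 CPM under the skin and 6.51, 6.83 and 11.5 CPM on the intestine. It stood at 12.7, 13.7 and 10.6 CPM in the first tap and 10.8, 11.3 and 13.5 CPM in the second. The level was 10.5 CPM in healthy ovary, 18.6 CPM in healthy intestine and 31.9 CPM in the line. Ccne2 encodes cyclin E2, and among the libraries outside the line its highest level was in healthy intestine. It was lower in intestine tumours than in the line (log2 fold change -1.94 ± 0.44, adjusted p = 0.0166). E2f1, the transcription factor that switches on S phase genes, was lower than in the line in intestine tumours (log2 fold change -2.29 ± 0.71, adjusted p = 0.0482). Ccne1, for cyclin E1, ranged from 1.15 CPM in first tap 1 to 10.4 CPM in intestine tumour 2 outside the line, against 15.8 CPM in the line.

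**Figure D4:**
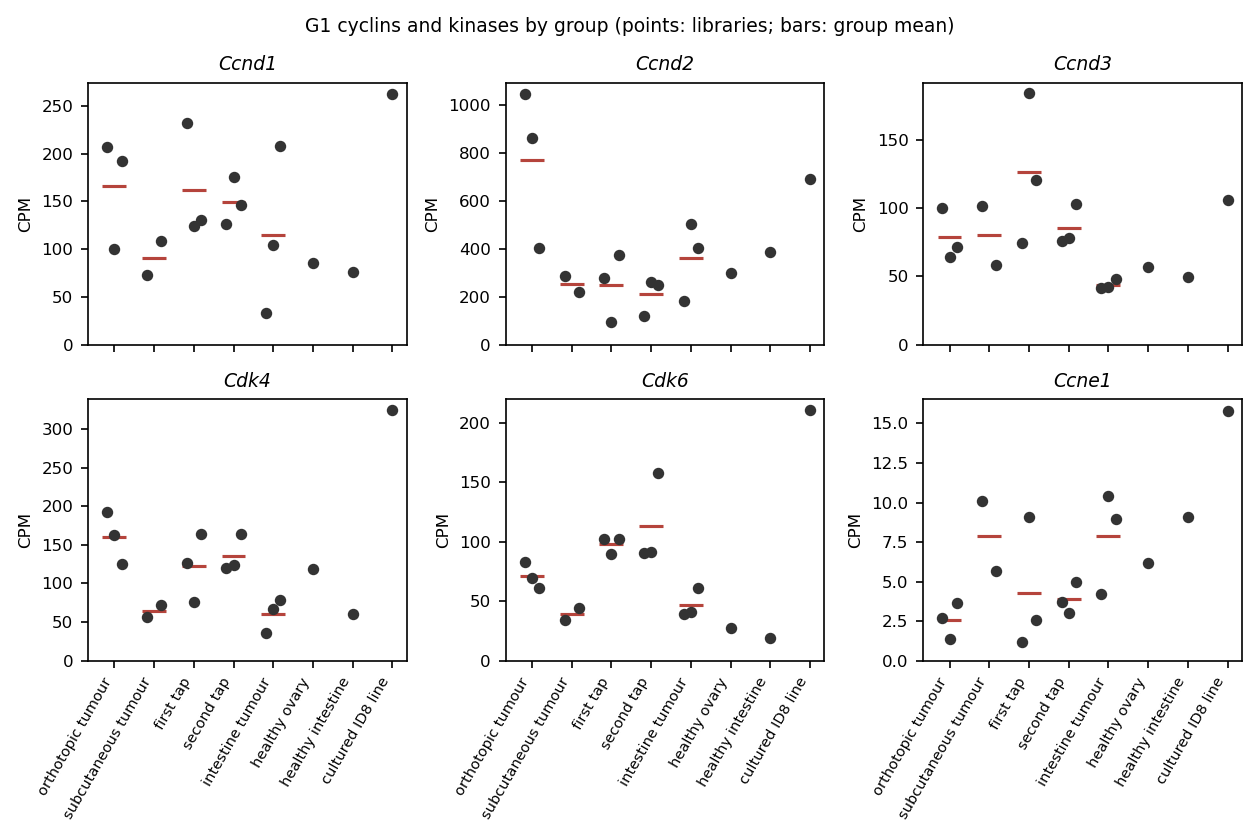
CPM (vertical axes, from 0) of the 3 D cyclins, Cdk4, Cdk6 and Ccne1 by group (across); points are libraries and bars group means. Ccnd2 reaches 1044 CPM in orthotopic tumour 1, above the line, while for Cdk4 and Cdk6 the single point of the line is the highest.

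All 18 genes of G2 and mitosis were lower in mean CPM in each tumour group than in the line, and Plk1, a kinase that drives mitotic entry and spindle assembly, passed in all 5 comparisons. Of the 18 genes, 1 was lower in orthotopic tumours, 12 in subcutaneous tumours, 2 at the first tap, 1 at the second and 7 in intestine tumours. At an unadjusted edgeR p under 0.05, 14, 18, 14, 11 and 18 were lower in that order, where 4677 to 7201 of all genes were under it. DESeq2 called 6, 18, 9, 2 and 12, where it called 3746 to 6538 of all genes. The median log2 fold changes were -2.45, -3.63, -2.55, -2.06 and -2.63 in the same order. These lay below the medians of the licensing and replication genes in orthotopic and subcutaneous tumours and at the first tap. They lay above them at the second tap and in intestine tumours. The G2 and mitosis genes spread more within groups than the replication genes did. The highest of the 3 first-tap libraries was a median of 4.35 times the lowest for these 18 genes, against 1.74 times for the licensing and replication genes, and in intestine tumours 9.30 times against 3.48 times.

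The promoters of Plk1 and of Aurka, a kinase of spindle poles, are shown because these genes had the most calls among the mitotic genes in the promoter table. Both come from RefSeq, build GRCm38.p6, with capitals as above, Plk1 at chr7:122159185-122159484 (plus strand) and Aurka at chr2:172370521-172370820 (minus strand).
Plk1: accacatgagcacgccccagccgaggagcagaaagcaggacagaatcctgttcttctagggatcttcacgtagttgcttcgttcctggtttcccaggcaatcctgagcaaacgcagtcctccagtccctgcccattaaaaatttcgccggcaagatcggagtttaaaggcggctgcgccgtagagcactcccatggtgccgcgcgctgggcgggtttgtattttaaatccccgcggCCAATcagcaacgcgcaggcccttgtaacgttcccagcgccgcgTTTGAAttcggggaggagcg
Aurka: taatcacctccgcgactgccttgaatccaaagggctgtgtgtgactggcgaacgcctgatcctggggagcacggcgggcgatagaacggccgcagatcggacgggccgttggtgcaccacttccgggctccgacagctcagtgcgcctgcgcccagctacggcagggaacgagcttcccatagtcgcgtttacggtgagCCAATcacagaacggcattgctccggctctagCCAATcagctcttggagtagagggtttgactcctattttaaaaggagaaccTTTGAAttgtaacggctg
Each holds CCAAT upstream of TTTGAA, the CHR letters. A CHR match was in 11 of 14 G2 and mitosis genes with a promoter (78.6%) and a CCAAT box in 13 of 14 (92.9%), against 17.9% and 37.4% of all promoters in the table. An E2F match was in 1 of 14 (7.14%). A CCAAT box was also in 8 of 11 licensing and replication genes (72.7%).

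Plk1 counts came to 32.2, 19.1 and 19.97 CPM in orthotopic, 5.30 and 6.92 CPM in subcutaneous and 32.8, 27.3 and 32.2 CPM in intestine tumours. They came to 7.53, 32.3 and 22.1 CPM in first-tap and 25.2, 21.6 and 35.2 CPM in second-tap ascites. They were 32.3 CPM in healthy ovary, 30.6 CPM in healthy intestine and 149 CPM in the cultured line. Subcutaneous tumours and first tap 1 were lowest, and the 3 intestine tumours were close to healthy intestine. Plk1 was 24.4-fold lower in subcutaneous tumours than in the line (log2 fold change -4.61 ± 0.66, adjusted p = 0.00687), 7.24-fold lower at the first tap (log2 fold change -2.86 ± 0.56, adjusted p = 0.0196), 6.29-fold lower in orthotopic tumours (log2 fold change -2.65 ± 0.56, adjusted p = 0.0284), 5.46-fold lower at the second tap (log2 fold change -2.45 ± 0.56, adjusted p = 0.0322) and 4.86-fold lower in intestine tumours (log2 fold change -2.28 ± 0.56, adjusted p = 0.0213). Its exons overlap a gene on the opposite strand, so the counts are uncertain without a stated strand setting.

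Aurka had 22.8, 11.7 and 14.5 CPM in orthotopic tumours, 9.29 and 7.76 CPM in subcutaneous tumours and 4.51, 23.1 and 20.4 CPM in intestine tumours. Ascites held 7.12, 20.5 and 15.8 CPM at the first tap and 16.5, 18.8 and 27.4 CPM at the second. Healthy ovary had 24.4 CPM, the healthy intestine 18.2 CPM and the cultured line 107 CPM. Intestine tumour 1 was lowest, with first tap 1 and subcutaneous tumour 3 next above it. Aurka was lower than in the line in subcutaneous tumours (log2 fold change -3.65 ± 0.80, adjusted p = 0.0206), intestine tumours (log2 fold change -2.73 ± 0.69, adjusted p = 0.0241) and the first tap (log2 fold change -2.88 ± 0.69, adjusted p = 0.0394). For Cdc20, the orthotopic tumours gave 25.4, 15.8 and 13.999 CPM, the subcutaneous tumours 2.82 and 9.52 CPM and the intestine tumours 5.14, 17.6 and 18.1 CPM. First-tap ascites gave 6.30, 17.7 and 22.8 CPM and second-tap ascites 16.4, 16.2 and 28.6 CPM. Healthy ovary gave 19.5 CPM, healthy intestine 14.9 CPM and the line 84.6 CPM. Cdc20, which activates the complex that ends mitosis, was lowest in subcutaneous tumour 2. It was lower in subcutaneous tumours (log2 fold change -3.78 ± 0.88, adjusted p = 0.0245) and intestine tumours (log2 fold change -2.63 ± 0.77, adjusted p = 0.0387) than in the line.

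Foxm1 stood at 83.6, 50.5 and 51.9 CPM in the orthotopic tumours, 12.9 and 23.0 CPM under the skin and 6.40, 54.0 and 69.1 CPM on the intestine. It stood at 23.0, 77.6 and 52.7 CPM in the first tap and 76.7, 58.2 and 131 CPM in the second. The level was 32.1 CPM in healthy ovary, 32.5 CPM in healthy intestine and 369 CPM in the line. Foxm1, the transcription factor of G2 and mitosis genes, was highest outside the line in second tap 3, and in healthy ovary and intestine it stood below all orthotopic tumours. It was 20.6-fold lower in subcutaneous tumours than in the line (log2 fold change -4.36 ± 1.02, adjusted p = 0.0249) and 8.52-fold lower in intestine tumours (log2 fold change -3.09 ± 0.87, adjusted p = 0.0348).

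Among the other mitotic genes, Ccnb1, for cyclin B1, Cdk1, its kinase, and Bub1b, of the spindle checkpoint, were lower in subcutaneous and intestine tumours. Ccna2, for cyclin A2, Cdc25c, the phosphatase that activates Cdk1, Aurkb and Birc5 of the chromosomal passenger complex, and Top2a, which untangles chromosomes, were lower in subcutaneous tumours. Ccnb2, Bub1, Mki67, Kif11, Cenpa and Cenpf passed in 0 of 5 comparisons. Mki67, the gene of the Ki-67 antigen used to score proliferation, averaged 149.7 ± 44.0 CPM in subcutaneous tumours (SD, n = 2). It averaged 261 ± 215 CPM in intestine tumours and 333 ± 60.4 CPM in orthotopic tumours (SD, n = 3 each). First-tap ascites averaged 312 ± 205 CPM and second-tap ascites 424 ± 121 CPM (SD, n = 3 each). Healthy ovary held 286 CPM, healthy intestine 433 CPM and the line 1194 CPM. The smallest adjusted edgeR p of Mki67 against the line was 0.069, in subcutaneous tumours. Ccnb1 and Ccnb2 have pseudogene copies that could share reads.

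Within the first tap and the intestine tumours, 1 library of each held most of the lowest levels. First tap 1 had the lowest level of its group for all 18 G2 and mitosis genes and for 8 of 13 licensing and replication genes. Its Mki67 level was 88.4 CPM, against 491 and 357 CPM in first taps 2 and 3. Intestine tumour 1 was the lowest of its group for 17 of 18 G2 and mitosis genes, 12 of 13 licensing and replication genes and all 9 G1/S genes; the exceptions were Plk1 and Rrm2. Intestine tumour 1 was also the library with the fewest counts. In the other groups, orthotopic tumour 2, subcutaneous tumour 2 and second tap 2 were each lowest for 16 of 18 G2 and mitosis genes. How often each library was the lowest of its group over all genes tested was not counted. Gut epithelium markers summed to 19308.5 CPM in intestine tumour 1, the highest sum of all libraries, against 16770.4 CPM in healthy intestine. First tap 1 held 2221 CPM of macrophage markers, the lowest sum in ascites. First tap 1 and intestine tumour 1 are also the 1 library of their group with the name prefix S. Of the other groups with 1 such library, second tap 2 had the lowest G2 and mitosis median of its group and orthotopic tumour 1 the highest. The part of the prefix, of depth or of other cells in these libraries was not tested.

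The 5 CDK inhibitors had other patterns. Cdkn2b, whose product inhibits Cdk4 and Cdk6, had no count in the line and was higher than in the line in subcutaneous and intestine tumours. Cdkn2c, another inhibitor of Cdk4 and Cdk6, was lower in intestine tumours. Cdkn1a, an inhibitor of CDKs that is induced by p53, and Cdkn1b, an inhibitor of Cdk2 complexes, passed in 0 of 5 comparisons with the line.

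Cdkn1a had 57.9, 24.7 and 62.4 CPM in orthotopic tumours, 16.5 and 20.8 CPM in subcutaneous tumours and 345, 316 and 114 CPM in intestine tumours. The ascites libraries showed 226, 54.1 and 61.0 CPM at the first tap and 41.6, 118 and 40.6 CPM at the second. Healthy ovary showed 17.8 CPM, the healthy intestine 199 CPM and the cultured line 46.6 CPM. The intestine tumours were above all orthotopic tumours and spanned the level of healthy intestine, and subcutaneous tumours were below all orthotopic tumours. First tap 1 and second tap 2 stood above the other ascites libraries. For Cdkn1b, the orthotopic tumours gave 133, 122 and 117 CPM, the subcutaneous tumours 113 and 74.0 CPM and the intestine tumours 107, 91.9 and 85.4 CPM. First-tap ascites gave 221, 75.9 and 132 CPM and second-tap ascites 104, 187 and 88.6 CPM. Healthy ovary gave 108 CPM, healthy intestine 91.6 CPM and the line 118 CPM. First tap 1 and second tap 2, which stood highest in ascites for Cdkn1a, were also the highest of all libraries for Cdkn1b, and both have the name prefix S. No Cdkn1b comparison among the 12 had an unadjusted p under 0.05.

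Cdkn2b stood at 0.675, 0.698 and 1.29 CPM in the orthotopic tumours, 1.91 and 1.87 CPM under the skin and 39.7, 34.5 and 14.7 CPM on the intestine. It stood at 0.164, 1.40 and 0.115 CPM in the first tap and 0.533, 0.229 and 0.441 CPM in the second. The level was 4.17 CPM in healthy ovary, 35.5 CPM in healthy intestine and 0 CPM in the line. The line had 0 counts, which allows up to 0.0795 CPM (3 counts, counting error alone). Against that limit the mean was at least 373-fold higher in intestine tumours (adjusted p = 0.00824) and at least 23.8-fold higher in subcutaneous tumours (adjusted p = 0.0313). Orthotopic tumours were at least 11.2-fold higher, the first tap at least 7.04-fold and the second tap at least 5.04-fold, and these 3 did not pass (adjusted p = 0.0755, 0.0924 and 0.113). Healthy intestine lay inside the range of the intestine tumours.

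Cdkn2a counts came to 0.467, 0.266 and 0.0789 CPM in orthotopic, 0.955 and 1.87 CPM in subcutaneous and 0, 0.849 and 0.285 CPM in intestine tumours. They came to 0.0548, 0.227 and 0.0765 CPM in first-tap and 0.385, 0.229 and 0 CPM in second-tap ascites. They were 0.348 CPM in healthy ovary, 0.411 CPM in healthy intestine and 0 CPM in the cultured line. Cdkn2a encodes inhibitors of Cdk4 and Cdk6 and of Mdm2, and it was highest in the subcutaneous tumours, with 22 and 38 counts, and had 20 counts or fewer in each other library. With 0 counts in the line as well, its subcutaneous mean was at least 17.7-fold higher, which did not pass (adjusted p = 0.11). Cdkn2c had 40.5, 29.5 and 20.9 CPM in orthotopic tumours, 41.0 and 26.9 CPM in subcutaneous tumours and 5.25, 12.6 and 18.2 CPM in intestine tumours. In ascites it had 16.8, 24.8 and 32.2 CPM at the first tap and 29.1, 25.5 and 47.2 CPM at the second. The healthy ovary held 18.7 CPM, the healthy intestine 12.4 CPM and the cultured line 52.4 CPM. The line was highest and intestine tumour 1 lowest. Cdkn2c was 4.33-fold lower in intestine tumours than in the line (log2 fold change -2.12 ± 0.58, adjusted p = 0.0319).

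**Figure D5:**
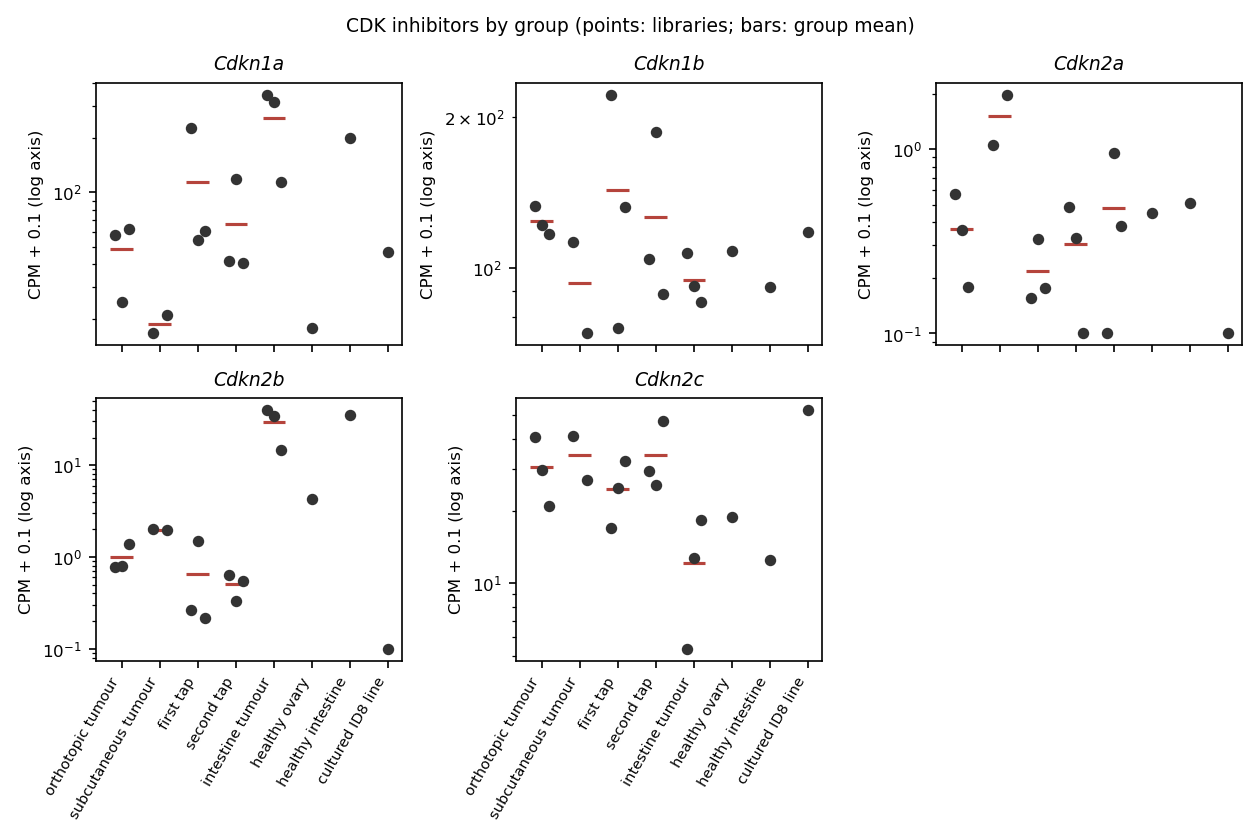
CPM + 0.1 (vertical log axes, 1 scale per gene) of the 5 CDK inhibitors by group (across); points are libraries and bars group means. The intestine tumours and healthy intestine share the highest Cdkn2b levels, 14.7 to 39.7 CPM, and the line is at 0 CPM for Cdkn2a and Cdkn2b.

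Tumour sites were then compared with each other. Tumours on the intestine differed from orthotopic tumours in 4 of the 45 genes: Cdkn2b and Cdkn1a were higher and Mcm7 and Cdk4 were lower, where 10.4% of all genes tested were called higher and 5.13% lower. Cdkn2b averaged 29.6 ± 13.2 CPM in intestine tumours and 0.887 ± 0.348 CPM in orthotopic tumours (SD, n = 3 each), a difference of 33.1-fold (log2 fold change 5.05 ± 0.87, adjusted p = 0.00348). Cdkn1a averaged 258 ± 125 CPM in intestine tumours and 48.3 ± 20.6 CPM in orthotopic tumours (SD, n = 3 each; log2 fold change 2.42 ± 0.67, adjusted p = 0.032). Cdk4 averaged 59.9 ± 22.1 CPM in intestine tumours and 161 ± 33.7 CPM in orthotopic tumours (SD, n = 3 each; log2 fold change -1.42 ± 0.36, adjusted p = 0.0212). Mcm7 averaged 33.5 ± 17.3 CPM in intestine tumours and 78.8 ± 12.8 CPM in orthotopic tumours (SD, n = 3 each; log2 fold change -1.23 ± 0.35, adjusted p = 0.0352).

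Healthy intestine lay inside the range of the intestine tumours in all 4 of these genes: it held 35.5 CPM of Cdkn2b, 199 CPM of Cdkn1a, 60.7 CPM of Cdk4 and 36.2 CPM of Mcm7. The summed gut epithelium markers were 6289.8 to 19308.5 CPM in intestine tumours, against 9.71 to 34.9 CPM in orthotopic tumours. The summed T cell markers were 95.1 to 359 CPM in intestine tumours, against 5.16 to 13.1 CPM in orthotopic tumours, and those of smooth muscle 951 to 1402 CPM, against 89.9 to 149 CPM. The part of these cells in the differences was not tested. Counts over all genes in the alternative fits that follow are not given here. Cdkn2b passed whichever of the 6 libraries was left out. Without intestine tumour 1 or 2, or without orthotopic tumour 1 or 2, Cdkn2b was the 1 gene that passed; without orthotopic tumour 3, Cdkn2b and Cdk4 passed; without intestine tumour 3, 10 genes passed. Between the libraries with the name prefix SM, 2 against 2, 0 genes passed, with Cdkn2b at a log2 fold change of 4.56 ± 1.08 and an adjusted edgeR p of 0.0754; with the prefix as a term in the fit of S and SM libraries, 7 passed. With the replicate number as a block Cdkn1a missed the threshold (adjusted p = 0.0522). Scaling by library size alone left 2 higher and 1 lower, with Mcm7 at an adjusted p of 0.0512. Of the 18 G2 and mitosis genes, 0 differed between intestine and orthotopic tumours by edgeR, at an unadjusted p under 0.05 or by DESeq2.

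Subcutaneous tumours had lower means than orthotopic tumours for all 13 licensing and replication genes and all 18 G2 and mitosis genes, with median log2 fold changes of -1.01 and -1.36, against 0.25 for all genes tested. By edgeR 0 of the 45 genes passed, where 0.0132% of all genes were called higher and 0% lower. At an unadjusted p under 0.05, 11 were lower and 1, Ccne1, was higher, where 4690 of the 22671 genes tested were under it. DESeq2 called 5 of the 45, where it called 2300 of the 22671 genes tested, a similar share. The 5 were lower: Mcm2 (-1.84 ± 0.46, adjusted p = 0.00283), Plk1 (-1.88 ± 0.54, adjusted p = 0.0109), Gins2 (-1.89 ± 0.56, adjusted p = 0.014), Mcm7 (-1.24 ± 0.39, adjusted p = 0.0243) and Cdk4 (-1.24 ± 0.41, adjusted p = 0.0306), given as log2 fold changes. Mcm2 averaged 20.8 ± 0.905 CPM in subcutaneous tumours (SD, n = 2) and 77.5 ± 23.5 CPM in orthotopic tumours (SD, n = 3).

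Ascites was also set against orthotopic tumours. At the first tap 0 genes passed by edgeR, where 0.688% of all genes were called higher and 0.891% lower. There, 1, Ccnd2, was lower at an unadjusted p under 0.05, where 4291 of all genes were under it. DESeq2 called Ccnd2 lower there, where it called 2590 of all genes. At the second tap 0 passed by edgeR, where 0.516% of all genes were called higher and 0.578% lower. At an unadjusted p under 0.05 Cdk6 was higher and Ccnd2 lower, where 3689 of all genes were under it. DESeq2 called Ccnd2 at the second tap, where it called 2021 of all genes. The second tap was then set against the first. Again 0 genes passed by edgeR, at an unadjusted p under 0.05 or by DESeq2, where 0% of all genes were called in each direction. All 18 G2 and mitosis genes had a higher fitted level at the second tap than at the first, with a median log2 fold change of 0.51 and a range of 0.31 to 0.85, and 12 of 13 licensing and replication genes did too, with a median of 0.33. The direction over all genes tested between the taps is not given here, so these counts have no background. First tap 1, the lowest of its group for all 18 G2 and mitosis genes, enters the first-tap values.

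The tumours were compared with the healthy tissue of their site, which is 1 library each. In orthotopic tumours against healthy ovary 0 of the 45 genes passed by edgeR, where 0.00882% of all genes were called higher and 0.591% lower. At an unadjusted p under 0.05 Cdk6 was higher (log2 fold change 1.37 ± 0.44, adjusted p = 0.237) and Cdkn2b lower (log2 fold change -2.23 ± 0.96, adjusted p = 0.412), and DESeq2 called Cdk6 (log2 fold change 1.37 ± 0.41, adjusted p = 0.0255). All 3 orthotopic tumours were above healthy ovary for Cdk6 and below it for Cdkn2b. Of the 18 G2 and mitosis genes, 9 had a higher and 9 a lower fitted level in orthotopic tumours.

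In intestine tumours against healthy intestine 0 of the 45 genes passed by edgeR or DESeq2, where 0% of all genes were called in each direction. At an unadjusted p under 0.05 Cdk6 was higher (log2 fold change 1.27 ± 0.44, adjusted p = 1) and Ccne2 lower (log2 fold change -1.17 ± 0.46, adjusted p = 1). All 3 intestine tumours were above healthy intestine for Cdk6 and below it for Ccne2. The difference between the effects at these sites, intestine tumours over healthy intestine against orthotopic tumours over healthy ovary, passed for 0 of the 45 genes, with a smallest unadjusted edgeR p of 0.0887.

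The wider pathway held 85 further cell cycle genes, of which 84 were tested. Against the line, 6 were lower and 2 higher in orthotopic tumours, 33 and 2 in subcutaneous tumours, 9 and 2 at the first tap, 5 and 2 at the second, and 38 and 3 in intestine tumours, lower and higher in that order. Of all genes tested, the orthotopic comparison called 0.834% lower and 2.37% higher, the subcutaneous one 3.23% lower and 6.25% higher, the first tap 1.11% lower and 3.11% higher, the second tap 1.27% lower and 3.16% higher, and the intestine comparison 5.63% lower and 9.55% higher. Cks1b, a CDK-binding subunit, was lower in all 5 (log2 fold change -3.53 ± 0.49, adjusted p = 0.00376 in intestine tumours and -3.55 ± 0.56, adjusted p = 0.0081 in subcutaneous tumours). Tfdp1, the partner of E2F factors, was lower in all 5 (in subcutaneous tumours, log2 fold change -2.81 ± 0.45, adjusted p = 0.00881). Orc6, of the origin recognition complex, was lower in 4, all but orthotopic tumours (in intestine tumours, log2 fold change -3.40 ± 0.49, adjusted p = 0.00422). Dbf4, which activates the kinase that fires origins, was lower in 4, all but the second tap (in orthotopic tumours, log2 fold change -2.93 ± 0.57, adjusted p = 0.0215).

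Cdkn1c, a CDK inhibitor of the Cdkn1a family, was higher than in the line in all 5 comparisons. It had 3.71, 4.52 and 4.82 CPM in orthotopic tumours, 13.0 and 7.51 CPM in subcutaneous tumours and 10.3, 2.21 and 9.72 CPM in intestine tumours. In ascites it had 1.48, 0.680 and 2.60 CPM and then 1.81, 1.77 and 2.57 CPM, against 0.0265 CPM in the line, which is 1 count. All 14 tumour and ascites libraries were above the line. The healthy ovary had 34.3 CPM, above all of them, and the healthy intestine 5.13 CPM. The mean of the subcutaneous tumours was 387 times the line (95% exact Poisson interval of the count in the line 69.4 to 15278, adjusted p = 0.0104), and that of the orthotopic tumours 164 times (29.5 to 6486, adjusted p = 0.0213). Rb1, the retinoblastoma gene, had 201 and 101 CPM in subcutaneous tumours and 156, 186 and 99.5 CPM in intestine tumours, against 33.6 CPM in the line. It was higher in both groups (log2 fold change 2.17 ± 0.54, adjusted p = 0.03 in subcutaneous and 2.13 ± 0.52, adjusted p = 0.021 in intestine tumours). Sesn1, a p53 target, was higher in 4, all but subcutaneous tumours (in orthotopic tumours, log2 fold change 2.203 ± 0.47, adjusted p = 0.0302). The wider pathway held 13 inhibitors and p53 targets, Cdkn1c and Sesn1 among them, and most had lower fitted levels than the line. Those lower were 9 in orthotopic, 10 in subcutaneous and 10 in intestine tumours. At the first and second tap they were 7 and 10.

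Between intestine and orthotopic tumours, 3 of the 84 were higher and 2 lower, where 10.4% of all genes were called higher and 5.13% lower. Cdc25a, the phosphatase that activates Cdk2, had 104, 126 and 63.2 CPM in intestine tumours, against 28.5, 19.5 and 18.6 CPM in orthotopic tumours, and 74.4 CPM in healthy intestine. The groups did not overlap, and the log2 fold change was 2.14 ± 0.35, adjusted p = 0.0025. Rb1 (log2 fold change 1.41 ± 0.33, adjusted p = 0.0153) and E2f5, a repressive E2F (log2 fold change 1.17 ± 0.33, adjusted p = 0.0341), were the other higher genes. Orc6 (log2 fold change -1.45 ± 0.39, adjusted p = 0.0274) and Bub3, of the spindle checkpoint (log2 fold change -0.82 ± 0.24, adjusted p = 0.0409), were lower. In the other 4 comparisons between replicated groups 0 of the 84 passed by edgeR. In subcutaneous against orthotopic tumours 11 had an unadjusted p under 0.05, where 4690 of all genes tested had it. DESeq2 called 1 there, where it called 2300 of all genes. Against orthotopic tumours these counts were 5 and 0 at the first tap, where they were 4291 and 2590 over all genes. At the second tap they were 3 and 0, against 3689 and 2021 over all genes. Between the taps they were 0 and 0.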

How the data were processed

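Total RNA of 17 libraries in 8 groups was profiled. Per the labels' protocols RNA was taken up in Trizol and libraries were made with a directional total RNA kit. The authors deposited a table of raw read counts per gene. The submitters' processing notes name HISAT, HISAT2, featureCounts and DESeq2 without versions, and the builds hg19 and mm39; the annotation and the strand setting of counting are not given in the sources used here. From the deposited counts, 1 column of per-sample values that matched no label was not used. Genes above 0.5 CPM in at least 2 libraries were tested (22671 of 43629) with edgeR 4.0.16 in R 4.3.3: TMM scaling, 1 quasi-likelihood fit of all 8 groups (robust, 9 residual degrees of freedom), and Benjamini-Hochberg adjustment over all genes tested at 0.05. CPM are counts scaled by the sum over tested genes and the TMM factor. The steps were tested on simulated data.

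Alternatives were DESeq2 size factors, library size alone, DESeq2 1.42.0, no filter on low counts, the replicate number as a block and each replicate left out; name prefix fits and the test of the difference between sites were added after the data were seen. The 45 genes, the wider pathway and the marker lists were chosen with earlier results of these data known. Values in every library are given for the D cyclins, Cdk4, Cdk6, the inhibitors and up to 4 genes per role with the smallest p in any of 12 comparisons; of the wider pathway, up to 4 genes per direction and comparison with the smallest p could be named. Promoters were matched by symbol to RefSeq, build GRCm38.p6. Counts come from reads without molecular identifiers, so intervals and limits of 3 counts cover counting error only.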

Additional observations from a re-analysis of the deposited data

How the results depend on the processing

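The 85 called values of single genes kept their direction under every alternative run, and 0 reversed. DESeq2 kept all 85 past the threshold, DESeq2 size factors in edgeR 82, no filter on low counts 74 and library size alone 45; over all fits that left out 1 library, 124 values stayed past it and 116 did not. Counts of called genes moved as follows. Library size alone gave 2 in orthotopic tumours, 14 in subcutaneous tumours, 5 at the first tap and 1 at the second against the line, where it moved the median of all genes by 0.139, 0.253, 0.0885 and 0.101 on the log2 scale; the shift was -0.17 in intestine tumours against the line, -0.305 against orthotopic tumours and 0.158 against healthy intestine, where 14 uncalled genes changed sign. DESeq2 gave 22 in orthotopic tumours, 25 at the first tap and 14 at the second against the line, 8 in intestine, 5 in subcutaneous, 1 in first-tap and 1 in second-tap libraries against orthotopic tumours, and 1 in orthotopic tumours against healthy ovary. The name prefix as a term gave 20 at the first tap and 11 at the second against the line and 7 in intestine against orthotopic tumours, where SM libraries alone gave 0 and no filter 2. The cause of these moves was not tested. For fits other than DESeq2, those with 1 library left out included, how many of all genes passed is not given here.

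Leaving out 1 library gave 1 to 3 calls in orthotopic tumours, 6 to 18 in subcutaneous tumours, 6 to 12 at the first tap, 0 to 5 at the second and 13 to 31 in intestine tumours against the line, and 1 to 10 in intestine against orthotopic tumours. The lowest counts came without orthotopic tumour 2 or 3, subcutaneous tumour 2, first tap 3, second tap 1 or 2, and intestine tumour 2. The other 6 comparisons stayed at 0.

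With the replicate number as a block, 4 genes passed in intestine against orthotopic tumours: Cdkn2b higher, and Cdk4, Mcm7 and Rrm1 lower. The block gave 0 in the other 4 comparisons of replicated groups. The correlation of deviations ran from -0.557 to 0.441 over 26 same-number pairs, 6 of them over 0.1, against -0.352 to 0.673 over 52 pairs of different number, 5 of them over 0.1. Deviations from the mean of 2 or 3 libraries cancel within a group, so positive and negative correlations come together. This check therefore cannot settle whether the number is a pairing. The highest correlation, 0.673, was between first tap 1 and second tap 2, both with the name prefix S. The number was not taken as a pairing, and whether it marks a shared animal is not given. The single libraries of the line and healthy tissues, and 2 or 3 per tumour group, limit what these tests can call.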

Other observations

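Genes next to Cdkn2a and Cdkn2b were looked at after the inhibitors' values were seen. Cdkn2a, Cdkn2b and Dmrta1 had 0 counts in the cultured line, which allows up to 0.0795 CPM each, while Mtap had 19900 counts there, or 527 CPM. Mtap had 265, 145 and 181 CPM in orthotopic tumours, 44.5 and 127 CPM in subcutaneous tumours and 6.30, 45.7 and 105 CPM in intestine tumours. In ascites Mtap had 145, 63.1 and 81.3 CPM at the first tap and 63.3, 169 and 64.7 CPM at the second. Healthy ovary held 49.9 CPM of Mtap and healthy intestine 16.5 CPM. Dmrta1 reached 8.35 CPM in healthy ovary and at most 3.04 CPM in any tumour or ascites library.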
